A study of Mus musculus with 10 samples.

Results

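Myoblast fusion joins single cells into the multinucleated myotube, and membrane repair reseals the muscle plasma membrane after it tears. The 10 genes described here serve 1 or both of these processes: Tmem8c, Cdh15, Cdh2, Itga7, Cav3, Dysf, Myof, Bin1, Cd9 and Cd81. They were taken as a named list, with no measured value in the rule but with earlier results of these data known. All 10 were found among the 23417 genes listed in each Huwe1 knockdown table and among the 23431 of the USP10 table. The RNA came from C2C12 cells, an immortalized mouse myoblast line that forms myotubes when serum is withdrawn. Huwe1, a HECT-domain ubiquitin ligase, was knocked down with lentiviral short hairpin RNAs and puromycin selection, and 2 knockdown libraries were set against 1 control library in proliferating myoblasts on day 0 (D0), after differentiation for 6 days (D6), and in myotubes collected on day 8 (D8). By the sample labels, the 2 knockdown libraries of a table carry different hairpins and D8 has another pair than D0 and D6, whereas the study's methods name 1 pair for myoblasts and myotubes. The D0 and D6 controls are labelled wildtype and the D8 control received a non-targeting RNA. The D8 cells had first been allowed to differentiate and were infected only as myotubes, whereas the D0 and D6 knockdown was made in myoblasts. A 4th table compared a stable C2C12 line carrying USP10, a deubiquitinase, behind an EF1a promoter with a control, both at D6. The study reports that by D6 the Huwe1 knockdown cells formed multinucleated myotubes poorly and the USP10 line did not form them. All groups derive from C2C12 cells and none from an animal. The control column of the USP10 table is named like the D6 control but holds other values, so it is given as the authors' value without a library of its own.

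Fusion proceeds in steps. Cadherins and integrins hold aligned myoblasts together, tetraspanins organize the contact zone, and the transmembrane proteins myomaker and myomixer then merge the bilayers. In a torn membrane, calcium entry recruits dysferlin-bearing vesicles, annexins and the ubiquitin ligase MG53 to the wound, and caveolin 3 and the cavins shape the caveolae around it. Bin1 bends membranes into the T tubules of muscle fibers, and loss of dysferlin, caveolin 3 or integrin alpha 7 function causes muscular dystrophy or myopathy in humans.

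Each table gives 1 expression value per gene and condition, in FPKM, a fragment count divided by transcript length and by library size. The 2 knockdown libraries of a table are pooled in 1 column, so no difference below has a replicate check and no p-value is given. Ratios were taken within a table as log2 of treated over control after adding 0.01 FPKM, for genes that reached 1 FPKM in either of its 2 columns, and "rose" or "fell" stands for a change of at least 2-fold. The tables were normalized separately, and levels compared between tables carry that limit. Depth, estimated from the steps between the lowest FPKM values, was 7830000 to 30000000 fragments for the columns made from 1 library and could not be estimated for the pooled columns.

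Huwe1 transcripts were lower in each knockdown column, at 38.3 against 15.2 FPKM on D0, 35.1 against 21.9 on D6 and 55.4 against 33.0 on D8, and Usp10 was 38.3 FPKM in the overexpressing line against 10.3 FPKM in its control. The Huwe1 decrease reached 2-fold only on D0 (2.52-fold), with 1.61-fold on D6 and 1.68-fold on D8. Usp10 also rose in the D6 knockdown, from 13.2 to 35.4 FPKM. Before differentiation, on D0, Usp10 stood at 68.5 FPKM without knockdown and at 64.2 FPKM with it. Both values were above the 38.3 FPKM of the overexpressing line at D6, across tables that were normalized separately. How much of the Usp10 RNA in that line came from the introduced gene was not tested. All 5 myoblast markers (Myod1, Myf5, Des, Cdh15, Vcam1) were above 1 FPKM in the 8 columns. Their sum was 464 FPKM in the D0 control and 2083 FPKM in the D6 control. Myod1 fell on D0, from 21.7 to 9.30 FPKM, and on D6, from 155 to 62.7 FPKM. Myf5 rose from 3.51 to 18.5 FPKM in the D6 knockdown and from 4.79 to 20.2 FPKM with USP10. On D8 Des fell from 1510 to 604 FPKM and Vcam1 rose from 47.8 to 129.8 FPKM. The summed level of 5 markers of differentiated muscle (Myog, Ckm, Acta1, Myh3, Tnnt3) was 10761 FPKM in the D6 control and 1614 in its knockdown, 9037 and 1895 on D8, 4898 and 2210 in the USP10 table, and below 8 in both D0 columns. At D6 the treated columns also held more of the 5 mesenchymal markers (Dcn, Pdgfra, Ly6a, Cd34, Col1a1), whose sum was 17.7 FPKM in the control against 3828 after knockdown, and 170 and 3656 FPKM in the USP10 table. On D8 that sum was 96.3 and 91.6 FPKM, and on D0 it was 181 and 166 FPKM. Single markers moved under these sums. On D8 Pdgfra rose from 1.95 to 7.74 FPKM and Dcn from 4.19 to 8.75 FPKM, while Ly6a fell from 13.9 to 4.28 FPKM. On D0 Dcn rose from 1.27 to 4.42 FPKM. Dcn alone was 2987 FPKM in the D6 knockdown and 3037 FPKM in the USP10 line. Pdgfra and Col1a1 did not reach 2-fold with USP10. The leukocyte gene Emr1 and the adipocyte gene Adipoq were listed at 0 in every column, and the leukocyte, epithelium, endothelium and adipocyte sums stayed at or below 15.99 FPKM. Some genes of these lists changed at D6. Fabp4 (adipocyte) rose from 0.348 to 4.68 FPKM in the knockdown and from 0.535 to 3.84 FPKM with USP10. Cdh5 (endothelium) rose from 0.0241 to 6.83 FPKM and from 0.278 to 6.81 FPKM. Cdh1 (epithelium) fell from 1.49 to 0.0232 FPKM and from 1.64 to 0.352 FPKM. Cd68 (leukocyte) fell with USP10, from 4.65 to 2.09 FPKM. The part of these mesenchymal and muscle differences in the results below was not tested, and in RNA from a whole culture fewer cells of a kind and less RNA per cell cannot be told apart.

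Promoter windows from 250 bases before to 50 bases after the transcription start (RefSeq, GRCm38.p6) were available for 6 of the 10 genes, Cdh15, Cav3, Dysf, Myof, Cd9 and Cd81. They were searched for the E-box CANNTG, which myogenic basic helix-loop-helix factors bind, and for its forms CAGCTG and CAGGTG or CACCTG, on both strands and with each of these forms also counted as CANNTG. Across 32851 promoter windows of this length, 72.3% held CANNTG, 16.3% CAGCTG and 20.2% CAGGTG or CACCTG. The windows printed here, 5′ to 3′ along the gene, are those of Cav3 and Dysf, which had the largest decreases among the 10 genes in the D6 knockdown, and of Cd9, which rose in the D6 knockdown. Capitals mark CAGCTG and CAGGTG.
Cav3 (chr6:112459255-112459554, plus strand): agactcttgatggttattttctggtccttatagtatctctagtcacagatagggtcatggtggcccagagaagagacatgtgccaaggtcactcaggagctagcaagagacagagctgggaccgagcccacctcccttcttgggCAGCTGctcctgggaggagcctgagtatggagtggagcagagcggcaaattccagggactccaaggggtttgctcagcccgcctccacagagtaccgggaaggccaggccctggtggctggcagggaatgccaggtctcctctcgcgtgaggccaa
Dysf (chr6:84008348-84008647, plus strand): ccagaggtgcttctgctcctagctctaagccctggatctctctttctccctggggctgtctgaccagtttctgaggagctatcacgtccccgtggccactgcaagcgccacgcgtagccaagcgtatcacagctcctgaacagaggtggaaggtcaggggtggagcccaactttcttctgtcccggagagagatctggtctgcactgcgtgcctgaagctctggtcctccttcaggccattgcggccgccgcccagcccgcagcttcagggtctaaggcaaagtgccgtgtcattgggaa
Cd9 (chr6:125494711-125495010, minus strand): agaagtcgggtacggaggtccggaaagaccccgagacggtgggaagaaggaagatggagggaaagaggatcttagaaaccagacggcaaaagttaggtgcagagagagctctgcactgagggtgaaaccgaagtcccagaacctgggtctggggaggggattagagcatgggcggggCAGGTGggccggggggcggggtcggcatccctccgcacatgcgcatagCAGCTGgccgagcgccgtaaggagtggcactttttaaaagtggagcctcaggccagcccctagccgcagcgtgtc
The Cav3 window held 1 CAGCTG, whose first base lies at -106 from the start, and 2 CANNTG in all. No CANNTG was found in the Dysf window, and the window of a second Dysf start, at chr6:84019136-84019435, held 1 CANNTG but neither marked form. Cd9 carried CAGCTG at -25 and CAGGTG at -73 among 3 CANNTG. Cd81, on chromosome 7, had 1 CAGCTG at -145 as its only CANNTG, Cdh15 had 4 CANNTG and Myof had 0. The Cd81 position counts from the RefSeq start at 143052750, which lies inside the gene span given below.

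Tmem8c, the older symbol of Mymk, encodes myomaker, the membrane protein that every fusing myoblast needs. It lies on chromosome 2 from 27061636 to 27072161 (mm10, minus strand). Its level was 0.721 FPKM in the D0 control and 0.725 FPKM in the D0 knockdown, about 22 fragments in the control library if all came from the longest transcript. At D6 it was 1399.7 FPKM in the control against 261 FPKM after knockdown. At D8 it was 1124 FPKM in the control against 347 FPKM after knockdown. The USP10 table gave 516 FPKM for the control and 187 FPKM for the overexpressing line. Myomaker transcripts therefore fell 5.37-fold at D6 (log2 ratio -2.42), 3.24-fold at D8 (-1.69) and 2.76-fold with USP10 (-1.46), and the 3 treated columns were below each of the 3 differentiated controls. The remaining level was far above that of myoblasts, since the D6 knockdown column stood 355-fold above the D0 knockdown column, against 1914-fold between the controls. Tmem8c ranked first of the 10 genes in each differentiated control, above 99.8% of listed genes at D6 and D8 and above 99.4% in the USP10 table. The D6 control and the control of the USP10 table differed 2.71-fold for this gene, close to the 2.76-fold change within the USP10 table.

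**Figure D1:**
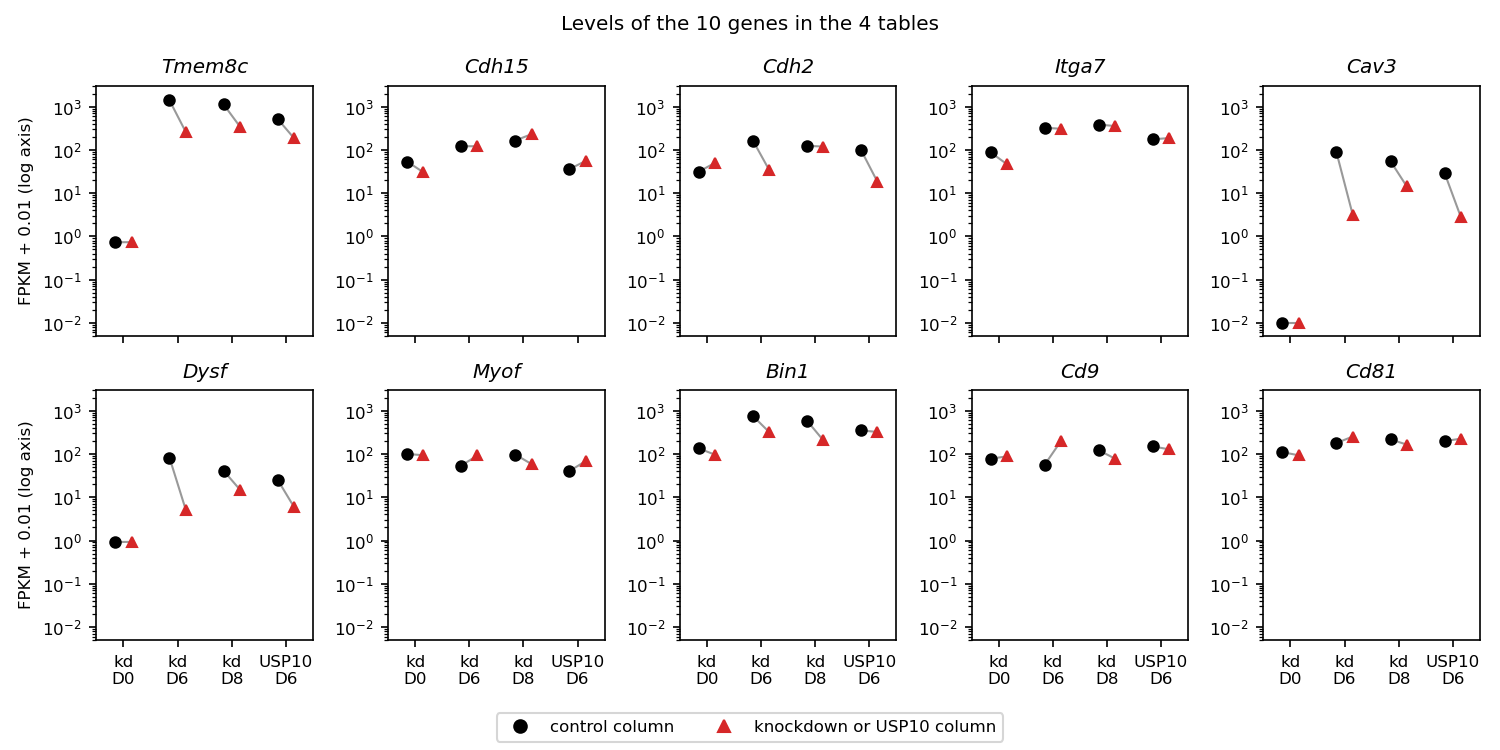
Level of each gene in the 8 columns, as FPKM plus 0.01 on a log axis, with 1 panel per gene and the 4 tables along the horizontal axis. Black circles are control columns and red triangles the Huwe1 knockdown (kd) or USP10 columns of the same table, each 1 value without error. Tmem8c, Cav3 and Dysf lie below 1 FPKM at D0 and fall from control to treated in the other 3 tables.

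The adhesion genes did not move together. Cdh15 encodes M-cadherin, the cadherin of satellite cells and myoblasts, on chromosome 8 from 122848374 to 122867397. Its level was 53.8 FPKM in the D0 control and 30.3 FPKM in the knockdown. At D6 the 2 columns were 121 and 121 FPKM, a log2 ratio of 0.00, and at D8 they were 165 and 231 FPKM. The USP10 table gave 35.9 FPKM for the control and 55.6 FPKM for the line. No Cdh15 ratio reached 2-fold, with log2 ratios of -0.82, 0.00, 0.49 and 0.63 in the order D0, D6, D8 and USP10, and the 2 D6 controls differed by 3.38-fold, more than either D6 ratio.

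Cdh2 encodes N-cadherin, which also bridges neuronal and cardiac cells. On D0 its level was 31.4 FPKM in the control against 50.1 FPKM after knockdown. The D6 columns were at 164 FPKM in the control against 34.2 FPKM after knockdown, and in the USP10 table it was 97.4 FPKM and 18.2 FPKM. The D8 columns, 124 and 119 FPKM, were nearly equal. N-cadherin thus fell 4.79-fold in the D6 knockdown and 5.34-fold with USP10, both more than the 1.68-fold difference between the D6 controls, while the D8 log2 ratio was -0.05 and the D0 log2 ratio was 0.67. Between D0 and D6 its level was 5.21-fold higher in the controls and 1.46-fold lower in the knockdown columns.

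Because Cdh2 fell and Cdh15 did not, the makeup of the pair shifted. M-cadherin made up 42.6% of their summed FPKM in the D6 control and 78.0% in the knockdown, and 26.9% and 75.3% in the USP10 table. On D0 the shift ran the other way, from 63.1% to 37.7%, and on D8 the shares were 57.0% and 66.0%.

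Itga7 encodes the alpha chain of the main laminin receptor of muscle and lies on chromosome 10 from 128933813 to 128960988. It was 88.1 FPKM in the D0 control and 46.8 FPKM in the knockdown, a log2 ratio of -0.91. At D6 it was 325 and 308 FPKM, at D8 384 and 356 FPKM, and in the USP10 comparison 176 and 188 FPKM. None of the log2 ratios after differentiation was larger than 0.11 in size. Itga7 was 3.69-fold higher at D6 than at D0 in the controls and 6.57-fold higher in the knockdown columns, and in the D8 knockdown it was the most abundant of the 10 genes.

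Cd9 and Cd81 encode tetraspanins, four-pass membrane proteins that gather partner proteins into patches and are also known from sperm and egg fusion. Cd9 lies on chromosome 6 from 125460266 to 125494755, and was 78.4 FPKM in the D0 control and 87.8 FPKM in the knockdown. Its D6 level was 56.5 FPKM in the control against 199 FPKM after knockdown, and at D8 it was 122 and 78.2 FPKM. The USP10 table gave 149.8 FPKM for the control and 128 FPKM for the line. The D6 knockdown was the only case in which any of the 10 genes rose, 3.53-fold (log2 ratio 1.82), and it was the highest Cd9 level of all columns. The control of the USP10 table was itself 2.65-fold above the D6 control, so that the Cd9 levels of the 2 treated D6 columns overlapped those of the 2 D6 controls. Of its 2044 exon bases, 218 overlap a transcript on the opposite strand, and whether the authors counted by strand is not given in the sources used here.

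Cd81, on chromosome 7 from 143032621 to 143067930, was the steadier of the pair. Its level was 111 FPKM in the D0 control and 93.5 FPKM in the knockdown. At D6 it was 179.8 and 253 FPKM, at D8 218 and 165 FPKM, and in the USP10 comparison 199.9 and 226 FPKM. Its log2 ratios of -0.25, 0.49, -0.40 and 0.18, in the order used for Cdh15, all stayed short of 2-fold. Over all columns its highest level was 253 FPKM and its lowest 93.5 FPKM.

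Cav3 encodes caveolin 3, the muscle caveolin, on chromosome 6 from 112459505 to 112472872. It was listed at 0 in both D0 columns, and 3 fragments would have given 0.119 FPKM in the D0 control library. At D6 its level was 88.6 FPKM in the control against 3.19 FPKM after knockdown. At D8 it was 54.6 FPKM in the control against 14.3 FPKM after knockdown. In the USP10 table it was 28.8 FPKM in the control, about 261 fragments, and 2.76 FPKM in the line, about 88 fragments. Cav3 fell most of the 10 genes in each of these tables, 27.7-fold at D6 (log2 ratio -4.79), 3.83-fold at D8 (-1.94) and 10.4-fold with USP10 (-3.38), and each treated column was below each differentiated control. The D6 controls differed 3.07-fold. Cav3 was the lowest of the 10 genes in each of the 3 treated columns.

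Cav1 and Cav2, which pair with each other, moved against Cav3 at D6. In the D0 control, Cav1 was 163 FPKM, or 82.1% of the summed caveolin FPKM, and Cav2 was 35.6 FPKM. Cav1 rose from 11.3 to 82.5 FPKM in the D6 knockdown and Cav2 from 0.446 to 13.4 FPKM, both below their D0 control levels. Cav3 accordingly made up 88.3% of the summed caveolin FPKM in the D6 control and 3.22% in the knockdown, where Cav1 made up 83.3%. In the USP10 table the Cav3 share was 31.0% in the control and 2.30% in the line. At D8 Cav1 fell as well, from 95.8 to 36.5 FPKM, and the Cav3 share was 35.8% and 27.3%. Murc, the muscle cavin (cavin 4), fell from 404 to 53.0 FPKM at D6, from 391 to 97.6 FPKM at D8 and from 151 to 52.3 FPKM with USP10. The widely expressed cavins Ptrf (cavin 1) and Prkcdbp (cavin 3) rose at D6, from 59.1 to 233 FPKM and from 5.89 to 49.0 FPKM. Their D0 control levels were 256 and 33.5 FPKM. Of the 7 caveolins and cavins, all above 1 FPKM at D6, 2 thus fell (Cav3, Murc) and 5 rose in the D6 knockdown, where 13.4% of all genes fell and 17.6% rose. At D8, 3 fell and 1 rose, where 10.0% and 7.89% of all genes did, and with USP10 3 fell and 3 rose, where 10.0% and 9.70% did. Whether these counts differ between tables was not tested.

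Dysf encodes dysferlin, the calcium-binding ferlin of muscle membrane repair, on chromosome 6 from 84008590 to 84211042. Its level was 0.914 FPKM in the D0 control and 0.920 FPKM in the knockdown. At D6 it was 82.3 FPKM in the control against 5.17 FPKM after knockdown. At D8 it was 41.1 and 15.03 FPKM, and in the USP10 comparison 25.1 and 5.97 FPKM. Dysferlin transcripts fell 15.9-fold at D6 (log2 ratio -3.99), 2.74-fold at D8 (-1.45) and 4.21-fold with USP10 (-2.07), with all 3 treated columns below all 3 differentiated controls. The 2 D6 controls differed 3.27-fold. The D6 level was 89.0-fold above D0 in the controls and 5.57-fold above it in the knockdown columns. Transcripts on the opposite strand overlap 352 and 105 of its 8328 exon bases.

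Myof encodes myoferlin, the ferlin of myoblasts, on chromosome 19 from 37899036 to 38043577. It was 100.4 FPKM in the D0 control and 93.8 FPKM in the knockdown. Myof was, at D6, 53.7 and 93.1 FPKM, at D8 97.3 and 58.5 FPKM, and in the USP10 comparison 40.4 and 68.8 FPKM. None of these differences reached 2-fold, and the log2 ratio was 0.79 at D6, -0.73 at D8 and 0.77 with USP10. In the ferlin pair the Dysf share of the summed FPKM was 0.902% in the D0 control, 60.5% in the D6 control and 5.26% in the D6 knockdown. It was 29.7% and 20.5% at D8, and 38.3% and 7.98% in the USP10 table. Both treated D6 columns were thus nearer to the D0 makeup than their controls were.

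**Figure D2:**
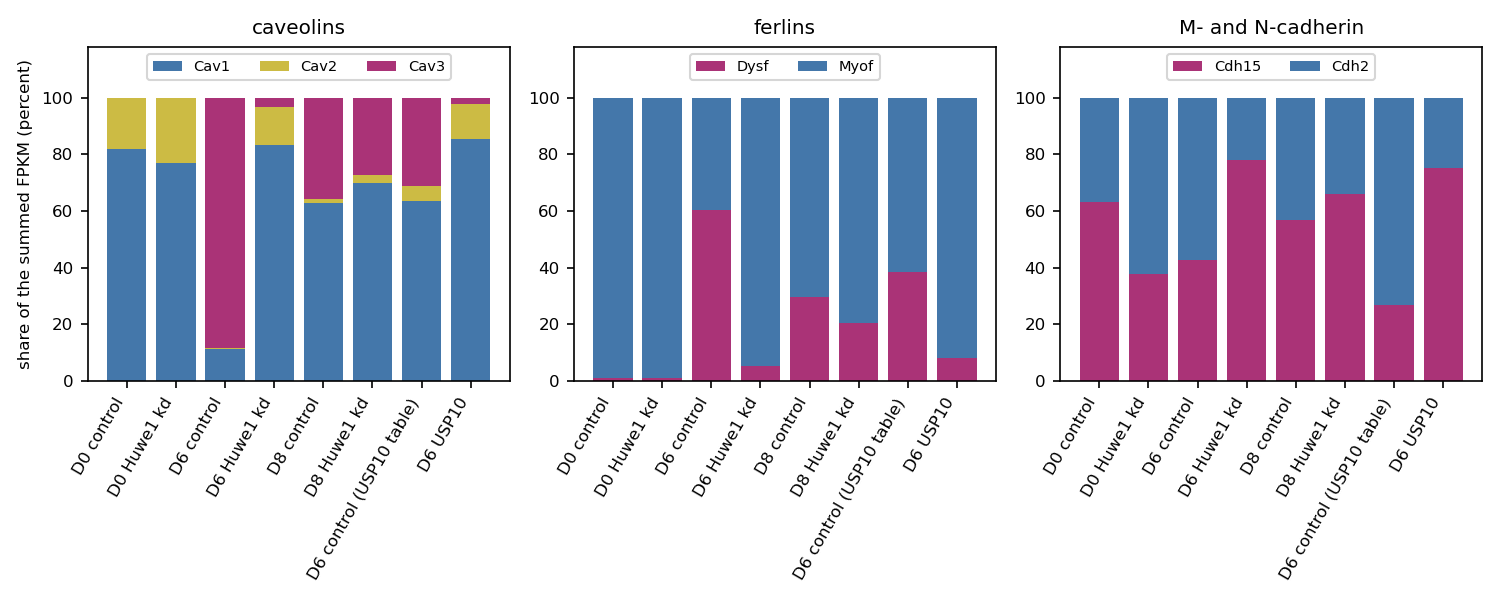
Makeup of 3 gene families in the 8 columns, as each gene's percent of the summed FPKM of the genes drawn, with 1 stacked bar per column and no error. The Cav3 share is 88.3% in the D6 control and 3.22% in its knockdown (kd), the Dysf share 60.5% and 5.26%, and the Cdh15 share 42.6% and 78.0%.

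Bin1 encodes amphiphysin 2, whose muscle form tubulates membranes. It was 135 FPKM in the D0 control and 96.3 FPKM in the knockdown. Its D6 columns gave 756 and 321 FPKM, at D8 587 and 207 FPKM, and in the USP10 comparison 353 and 323 FPKM. Bin1 fell 2.35-fold at D6 (log2 ratio -1.23) and 2.83-fold at D8 (-1.503), and the log2 ratio in the USP10 table was -0.13. Although the 2 treated D6 columns were nearly level at 321 and 323 FPKM, their controls differed 2.14-fold. At D0 the log2 ratio was -0.49, and Bin1 was the most abundant of the 10 genes in both D0 columns. A transcript on the opposite strand overlaps 256 of its 4117 exon bases.

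Counted by table, the 10 genes ran as follows. On D0, 7 were above the 1 FPKM minimum (Tmem8c, Cav3 and Dysf were not), and none of the 7 fell or rose, where 1.69% of 10874 genes fell and 1.90% rose. Their median log2 ratio was -0.25 (-0.05 with the other 3 genes included) against 0.00 for all genes, and the lowest were Itga7 (-0.91) and Cdh15 (-0.82). On D6 all 10 were above the minimum and 5 fell (Tmem8c, Cdh2, Cav3, Dysf and Bin1), where 13.4% of 11695 genes fell, and 1 rose (Cd9), where 17.6% of genes rose. The median was -0.66 against -0.01. On D8, 4 fell (Tmem8c, Cav3, Dysf and Bin1), where 10.0% of 11755 genes fell, and none rose, where 7.89% did. There 9 of the 10 log2 ratios were below 0, all but that of Cdh15, and the median was -0.69 against 0.00. With USP10, 4 fell (Tmem8c, Cdh2, Cav3 and Dysf), where 10.0% of 11482 genes fell, and none rose, where 9.70% did, with a median of -0.17 against 0.05. Only Tmem8c, Cav3 and Dysf fell in all 3 differentiated tables.

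**Figure D3:**
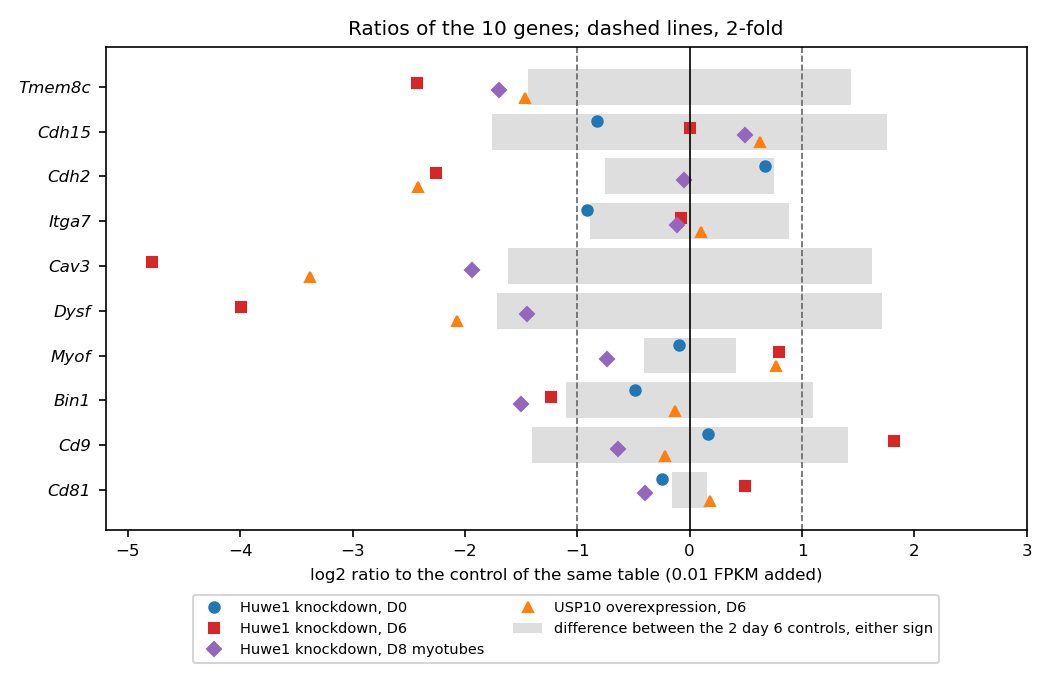
Log2 ratio of the treated to the control column of the same table for each of the 10 genes, with dashed lines at 2-fold and grey bars showing the difference between the 2 D6 control columns drawn to both sides of 0. Points are single values without error, and Tmem8c, Cav3 and Dysf have no D0 point. Cav3 reaches -4.79 at D6, and Cd9 at 1.82 is the only point right of the upper 2-fold line.

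The 2 D6 controls are the nearest thing to repeated columns, and they were far apart. Over 11459 genes 19.9% differed at least 2-fold between them, with a robust SD of 0.63 on the log2 scale. The change in the D6 knockdown was larger than this between-control difference for 8 of the 10 genes, all but Cdh15 and Itga7, as it was for 62.7% of 12018 genes. The change with USP10 was larger for 6 of the 10 (Tmem8c, Cdh2, Cav3, Dysf, Myof and Cd81), as for 48.8% of genes, and the margin was small for Tmem8c (log2 ratio -1.46 against a difference of 1.44) and Cd81 (0.18 against 0.15 in size). Both treated D6 columns lay below both controls for 5 of the 10 genes (Tmem8c, Cdh2, Cav3, Dysf and Bin1), as they did for 26.7% of 12018 genes. They lay above both for 2 (Myof and Cd81), as for 28.9% of genes, and overlapped for Cdh15, Itga7 and Cd9. The depth of the control of the USP10 table, 7830000 fragments, was the lowest estimated.

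A wider list of 62 fusion genes that leaves out the 10 genes (adhesion, actin regulators, phosphatidylserine receptors, chemokines and fusogens) was also counted. Of 52 list genes above the minimum, 6 fell and 15 rose in the D6 knockdown, with a median log2 ratio of 0.48 against -0.01 for all genes. The share that fell, 11.5%, was close to the 13.4% of all genes, and the share that rose was 28.8% against 17.6%. The fusogen myomixer, listed as Gm7325, was among those that fell, from 30.3 to 5.87 FPKM, as did the activin-binding protein follistatin (Fst), from 45.8 to 3.51 FPKM, and Nckap1l, a subunit of the WAVE actin-regulating complex of blood cells, from 5.25 to 1.54 FPKM. The largest increases were those of Elmo1, which activates Rac with Dock1, from 0.0794 to 8.34 FPKM, the chemokine Cxcl12, from 1.25 to 102 FPKM, and annexin A1 (Anxa1), from 110 to 1167 FPKM. With USP10, 8 of 54 (14.8%) fell and 9 (16.7%) rose, where 10.0% and 9.70% of all genes did, with a median of 0.26 against 0.05. Gm7325 fell from 14.3 to 0.8702 FPKM and Fst from 12.4 to 0.863 FPKM. The chemokine receptor Cxcr4 fell from 21.1 to 3.84 FPKM while its ligand Cxcl12 rose from 14.6 to 97.4 FPKM. Elmo1 rose from 1.80 to 52.7 FPKM and Cdh11, the mesenchymal cadherin, from 4.72 to 36.7 FPKM. The 8 decreases were 5 with a minimum of 5 FPKM and 3 when 1 FPKM was required in both columns.

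At D8, 6 of 52 fusion list genes (11.5%) fell and 5 (9.62%) rose, near the 10.0% and 7.89% of all genes, with a median of -0.17 against 0.00. Gm7325 fell from 47.2 to 22.6 FPKM, the junctional adhesion molecule Jam2 from 26.0 to 7.81 FPKM and Cdh11 from 20.6 to 8.71 FPKM. Cxcl12 rose again, from 2.03 to 29.1 FPKM, with the interleukin receptor Il4ra, from 15.2 to 48.1 FPKM, and Vcam1, from 47.8 to 129.8 FPKM. On D0, where 1.69% of all genes fell and 1.90% rose, 1 of 49 (2.04%) fell, the cadherin-associated receptor Cdon from 24.2 to 10.7 FPKM, and 2 rose, among them Cxcl12 from 5.87 to 14.2 FPKM, with a median of 0.06 against 0.00. The 2 fusogens Tmem8c and Gm7325 thus both fell in each differentiated table.

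The membrane repair list of 42 further genes (annexins, S100 proteins, calpains, ESCRT subunits, anoctamins and cavins) had more increases than decreases at D6, where 4 of 41 (9.76%) fell and 14 (34.1%) rose, beside 13.4% and 17.6% of all genes, with a median of 0.23 against -0.01. Trim72, which encodes MG53, fell from 162 to 18.9 FPKM together with Murc, described above, and annexin A11 (Anxa11) fell from 80.2 to 32.5 FPKM. Among the increases, S100a11 rose from 110.0 to 1045 FPKM, and its relative S100a10 from 113 to 731 FPKM beside its partner annexin A2 (Anxa2), from 125 to 409 FPKM. These 2 were chosen for naming after their values were seen. In the D0 control S100a11 was 1164 FPKM, S100a10 949 FPKM and Anxa2 811 FPKM, each above its level in the D6 knockdown. Anxa1, at 743 FPKM in the D0 control, was below its D6 knockdown level. With USP10, 4 of 41 (9.76%) fell, near the 10.0% of all genes, and 9 (22.0%) rose, where 9.70% of all genes did, with a median of 0.18 against 0.05. The changes included Trim72 falling from 24.7 to 3.26 FPKM, Sdpr (cavin 2) falling from 147.5 to 52.9 FPKM, and Vps4a, the ATPase that takes ESCRT filaments apart, rising from 41.1 to 126 FPKM. At D8, 7 of 41 (17.1%) fell and 2 (4.88%) rose, beside 10.0% and 7.89% of all genes, with a median of -0.21 against 0.00. Ano5, an anoctamin mutated in a limb-girdle dystrophy, fell from 9.13 to 0.407 FPKM and Anxa11 from 76.8 to 20.3 FPKM, while Sdpr rose from 44.0 to 106 FPKM and the lysosomal protease Ctsb from 95.5 to 229 FPKM. On D0, 1 of 39 (2.56%) fell and 1 rose, Sdpr from 10.1 to 42.4 FPKM, with a median of 0.06 against 0.00. The annexins Anxa1 and Anxa5 stand in both lists.

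**Figure D4:**
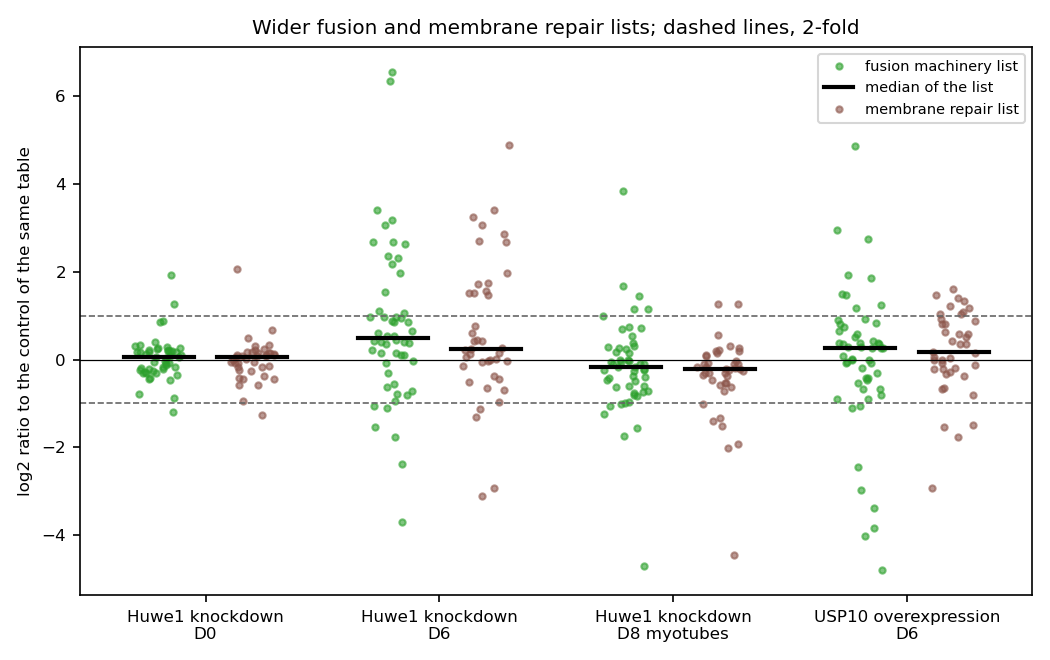
Log2 ratio of treated to control for the genes of the wider fusion list (green) and membrane repair list (brown) above 1 FPKM in each table, 1 point per gene, with black bars at the list medians and dashed lines at 2-fold. The D6 medians are 0.48 and 0.23 and the D8 medians -0.17 and -0.21.

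The genes whose profile over the 8 columns was most like that of Tmem8c, Cdh15 or Cav3 were sought among 10236 genes that reached 5 FPKM in any column, by the root mean square difference of log2 profiles each centred on its own mean. Among those nearest to Tmem8c were the slow troponin C gene Tnnc1 (0.490), then Lmod3 (0.521), Filip1 (0.524) and Myom2 (0.528), and Tnnc1, Lmod3 and Myom2 encode sarcomere proteins. Cav3 was closest to Neb, the nebulin gene (0.366), followed by Myom3 (0.440), the myogenic regulator Myog (0.458), Tnni1 (0.573) and Trim63 (0.6). Myog, for instance, was 619 FPKM in the D6 control and 27.1 FPKM in the knockdown, a 22.8-fold decrease beside the 27.7-fold decrease of Cav3. Cdh15 was closest to Josd2 (0.267), Parp3 (0.312), Ddr1 (0.399), 2310047M10Rik (0.402) and Trim7 (0.406). The 8 columns come from 4 separately normalized tables and differ in time of differentiation, so these distances are descriptions. Cav3 was listed at 0 in both D0 columns, where its profile rests on the 0.01 FPKM added. No other pseudocount was tried for the distances.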

How the data were processed

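RNA was measured in 10 C2C12 libraries. Per the labels and the study's methods, the authors selected mRNA on oligo(dT), made directional ScriptSeq v2 libraries, sequenced them on an Illumina HiSeq instrument, and used Tophat for mapping (their processing notes name Bowtie2, Cuffdiff and mm10) and Cuffdiff for comparing conditions. Tool versions and the gene annotation are not given in the sources used here. The deposited values are FPKM, estimated by the authors with Cuffdiff and normalized within each of 4 tables, and pooling the 2 knockdown libraries of a table into 1 column. The tables also hold the authors' fold changes, test scores, p-values and q-values, which were not used. All 8 FPKM columns were used.

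Log2 ratios of treated to control were taken with 0.01 FPKM added, over genes that reached 1 FPKM in either column, and changes of at least 2-fold were counted. With 1 value per condition there was no test. The scale understates changes of low genes. The members and gene lists were chosen with earlier results of these data known. Named were all 10 genes in each table, their gene families by counts and extremes, and, for each list and table, up to 3 genes with the largest change in each direction among those changed at least 2-fold and reaching 5 FPKM in either column, plus the 5 closest profiles of Tmem8c, Cdh15 and Cav3, of which 1 is not reported here. Symbols of the files (Tmem8c, Gm7325, Murc) were kept. Of 66 fusion and 47 repair names written, newer synonyms included, 62 and 42 were found. Coordinates are those of the deposited tables in mm10. Fragment numbers rest on the longest GENCODE transcript, and floors of 3 fragments cover counting error only. Alternatives were pseudocounts of 0.1 and 1, minimums of 0 and 5 FPKM, a minimum in both columns and centring on the median gene. Computations were tested on simulated data. The tools were pandas 2.3.3 and numpy 2.4.6 under Python 3.11.15, with matplotlib 3.10.9 for plots.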

Additional observations from a re-analysis of the deposited data

Results flagged for a closer look

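For 3 of the 10 genes the knockdown ratio ran in opposite directions in 2 tables, with at least 1.5-fold in each. The Cdh2 log2 ratio was 0.67 on D0 and -2.26 on D6, a difference of -2.93. Myof stood at 0.79 on D6 and -0.73 on D8, a difference of -1.53, and Cd9 at 1.82 on D6 and -0.64 on D8, a difference of -2.46. Each table has 1 value per condition, and these differences were not tested.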

How the results depend on the processing

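Pseudocounts of 0.1 and 1, no minimum, a minimum of 5 FPKM, 1 FPKM in both columns and centring on the median gene reversed no ratio of the 10 genes and moved none across the 2-fold line. The D0 median of the 10 genes, -0.25 over the 7 above the minimum, was -0.05 over all 10 with no minimum. The counts that moved by more than 1.5 times belonged to the wider lists, and the cause is the smaller or larger number of low genes counted, except for the pseudocount. In the D0 fusion list, 2 genes fell with no minimum in place of 1, and 1 rose in place of 2 both with a minimum of 5 FPKM and with 1 FPKM in both columns. In the D0 repair list, the 1 decrease became 0 with a pseudocount of 1, with a minimum of 5 FPKM and with 1 FPKM in both columns, and 2 genes rose with no minimum in place of 1. In the USP10 table, the 8 decreases of the fusion list were 5 with a minimum of 5 FPKM and 3 with 1 FPKM in both columns. Among the other 159 summary values, counts stayed within 1.5 times the main count and medians moved by less than the spread between the D6 controls. The 222 ratios of single genes also moved by less than that spread. No paired analysis was possible because the columns pool the replicates, and for the same reason no replicate could be left out. The pooled columns have no depth estimate, and the 7830000 fragments of the control of the USP10 table set the coarsest floor, 0.331 FPKM for 3 fragments of Cav3.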

Other observations

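Relatives of the 10 genes also differed, and the counts cover all family members above 1 FPKM, the 10 genes included. Of 21 tetraspanins in the D6 knockdown, 3 (14.3%) fell and 8 (38.1%) rose, where 13.4% and 17.6% of all genes did. Tspan13 fell from 27.3 to 0.240 FPKM and Tspan7 rose from 15.005 to 135 FPKM. In the USP10 table, where 4 of 21 (19.0%) fell and 3 (14.3%) rose beside 10.0% and 9.70% of all genes, Tspan13 fell from 19.6 to 0.497 FPKM Tspan7 rose from 23.2 to 95.9 FPKM and Tspan15 rose from 10.6 to 66.0 FPKM. At D8, 7 of 20 fell and none rose, where 10.0% and 7.89% of all genes did, among them Tspan13, from 10.4 to 1.43 FPKM, Tspan7, from 15.8 to 1.81 FPKM, and Tspan32, from 4.55 to 0.150 FPKM.

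Among integrin chains, with the beta chain Itgb1 counted beside the alpha chains, 4 of 8 rose in the D6 knockdown and none fell. Of all genes, 17.6% rose and 13.4% fell there. The increases were led by Itga11, a collagen receptor chain, from 0.141 to 12.6 FPKM. At D8, 2 of 9 fell and 2 rose, where 10.0% and 7.89% of all genes did, with Itga6, a laminin receptor chain like Itga7, falling from 15.4 to 1.82 FPKM. Of the cadherins, Cdh5 rose from 0.0241 to 6.83 FPKM in the D6 knockdown and from 0.278 to 6.81 FPKM with USP10. Its D0 control level was 13.5 FPKM. Cdh13 fell from 94.7 to 37.8 FPKM at D8. Tmem8b, a relative of myomaker, fell from 6.27 to 0.404 FPKM at D6 and from 4.07 to 0.374 FPKM with USP10. Tspan7 outside D6, Itga6 and Cdh13 were chosen for naming after their values were seen.

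Among the 10 genes themselves, the most alike profiles over the 8 columns were those of Cd81 and Cd9, with a root mean square log2 difference of 0.465. For Cav3 the nearest of the 10 was Tmem8c, at 0.979, and the farthest was Myof, at 5.19. These Cav3 distances rest in part on the 0.01 FPKM added to its D0 values of 0.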
